A study of Bos taurus with 36 samples.

Results

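The nuclear genes for the machinery of oxidative phosphorylation were followed in mammary tissue of lactating Holstein cows. Members were all genes whose single symbol in the array annotation began with NDUFA, NDUFB, NDUFC, NDUFS, NDUFV, SDHA to SDHD, UQCR, COX4I, COX5, COX6, COX7, COX8 or ATP5, and each gene was read from the probe set with the highest mean log2 value over the arrays. This rule found 88 genes of the 9155 genes that the array measures under a single symbol, with 42 in complex I, 8 in complex II, 8 in complex III, 13 in complex IV and 17 in complex V. The names brought in 8 assembly factors (4 NDUFAF and 4 SDHAF genes), so that 80 members remain without them. All 88 entered every test, since no filter on low values was applied.

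Each of 6 multiparous cows was milked 2 times a day on the left side of the udder (2×) and 4 times a day on the right side (4×) from the start of lactation to day 21, after which both sides were milked 2 times a day. Both sides were biopsied on days 21, 23 and 40, which gave 6 groups of 6 cows and 36 arrays. The 4× samples of days 23 and 40 were thus taken from glands that had returned to 2× milking. The biopsies of day 23 were from fore glands and the others from rear glands, so day 23 cannot be told apart from gland position. The rear glands sampled on day 40 had thus been biopsied before, on day 21. Milking frequency cannot be told apart from side, since 4× glands were always right glands. The question put to the members was whether the complexes differed between the sides on each day, and whether that difference altered when frequent milking ended.

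Oxidative phosphorylation takes place at the inner mitochondrial membrane. Complex I (NADH dehydrogenase) and complex II (succinate dehydrogenase, which is also a citric acid cycle enzyme) pass electrons to ubiquinone, complex III (the cytochrome bc1 complex) passes them on to cytochrome c, and complex IV (cytochrome c oxidase) passes them to oxygen. Complexes I, III and IV pump protons, and complex V (ATP synthase) makes ATP from the gradient. Milk synthesis uses much ATP, and secretory epithelial cells gain mitochondria around the onset of lactation. Some subunits are encoded by mitochondrial DNA, and none of the mitochondrially encoded genes on a prepared list had a single symbol on this array, so they are not analysed here.

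The values are log2 signals of probe sets and were compared between samples for the same gene only. Array medians lay between 6.04 and 6.15. The 8 measured markers of secretory epithelium, which include the casein genes, averaged 13.97 to 14.05 in the 6 groups. The left gland of cow 1 on day 21 stood apart in cell type markers. Its 5 ductal and luminal keratins averaged 10.28, against 8.43 in the right gland of that cow, and its secretory markers averaged 13.67, the lowest of the 36 arrays. Counts and medians of the members are given with and without this cow where they rest on it, and those of the other lists on day 21 likewise. Some counts without a cow have no share of all genes beside them. They show the dependence on that cow and are no result about the members. In a biopsy of mixed cells, fewer cells of a type and less RNA per cell cannot be told apart. The study counted cells in sections of the biopsies and found no effect of milking or day on the epithelial and stromal shares. Ductal, alveolar and myoepithelial cells were counted together there. It also lists the markers KRT7, KRT8, KRT15 and S100A12 among genes whose difference between the sides changed from day 21 to day 23.

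The mean levels of the complexes hardly separated the groups. The mean over all 88 members was 9.42 ± 0.16 (SD, n = 6) in 2× glands and 9.46 ± 0.13 in 4× glands on day 21. On day 23 it was 9.52 ± 0.16 and 9.50 ± 0.10, and on day 40 it was 9.50 ± 0.07 and 9.55 ± 0.15. In complex I the group means ran from 9.07 ± 0.20 in 2× glands on day 21 to 9.23 ± 0.17 in 4× glands on day 40. Complex II had the narrowest span, from 8.23 ± 0.14 in 2× glands on day 21 to 8.30 ± 0.09 in 2× glands on day 40. Complex III ran from 9.63 ± 0.15 to 9.79 ± 0.17 and complex IV from 9.53 ± 0.11 to 9.66 ± 0.12, each from the 2× glands of day 21 to the 4× glands of day 40. Complex V ran from 10.65 ± 0.14 in 2× glands on day 21 to 10.75 ± 0.15 in 4× glands on day 40. Neighbouring groups overlapped in each complex.

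**Figure D1:**
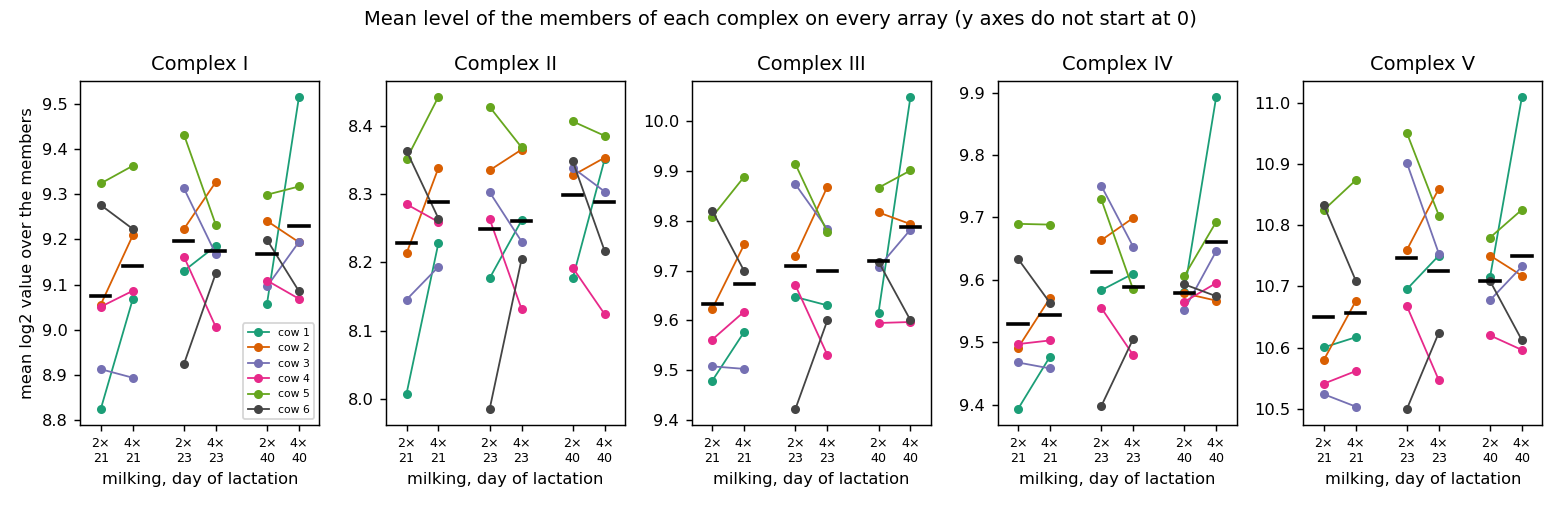
The vertical axis is the mean log2 value over the members of a complex, and the horizontal axis is the group by milking and day. Points are arrays, coloured lines join the sides of a cow, and black bars are means of 6 cows. The groups overlap in all 5 complexes, and cow 1 climbs most steeply on day 40, from 9.06 to 9.52 in complex I.

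Within a complex, single members had a small spread over the 36 arrays, with a median SD of 0.18 and a range of 0.10 to 0.45. The most variable were NDUFB6 in complex I (SD 0.31), SDHAF4 in complex II (SD 0.45), UQCRB in complex III (SD 0.33), COX6B2 in complex IV (SD 0.23) and ATP5MC1 in complex V (SD 0.25). NDUFB6 is an accessory subunit of complex I, SDHAF4 a chaperone that binds the flavin-carrying SDHA before its assembly, and UQCRB a small subunit that binds ubiquinone in complex III. ATP5MC1 encodes the c subunit of the rotating ring of ATP synthase. Mean signals ran from 4.43 for NDUFAF5 to 11.75 for NDUFA4 in complex I, from 4.89 for SDHAF3 to 10.25 for SDHA in complex II, and from 8.05 for UQCRQ to 10.37 for UQCR10 in complex III. They ran from 5.01 for COX6A2 to 11.65 for COX6A1 in complex IV and from 8.90 for ATP5F1D to 11.90 for ATP5F1A in complex V. Signals of different probe sets are not amounts of RNA, but 86 of the 88 members lay at a mean of at least 5, and the other 2 (NDUFAF5 and SDHAF3) were dim.

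On day 21, at the end of frequent milking, 5 of 88 members were higher in 4× than in 2× glands at an unadjusted p under 0.05 and 0 were lower. Over all 9155 genes, 8.29% were higher and 9.61% were lower by the same rule, so the share of higher members (5.68%) was below the background, and their differences were small. The 5 were NDUFB2, NDUFA4 and NDUFAF3 of complex I, SDHAF4 of complex II and UQCRFS1 of complex III. No member passed an adjusted p under 0.05 in limma (smallest 0.207), and of the 24016 probe sets tested 0% passed it. The difference was above 0 in 60 of 88 members with a median of 0.027, while the median of all genes was 0.008. The members' median was 0.014 without cow 1 and 0.061 without cow 6.

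NDUFB2, an accessory subunit of the membrane arm of complex I, had values of 8.32, 8.94, 8.54, 8.79, 9.10 and 8.89 in the 2× glands of cows 1 to 6. In the 4× glands of the same cows it had 8.93, 9.07, 8.72, 8.97, 9.21 and 8.92. The groups overlapped, but the 4× gland was the higher in 6 of 6 cows, by 0.61 in cow 1 and by 0.03 to 0.18 in the others. The mean difference was 0.21 (SE 0.08, adjusted p = 0.207 in limma). Without cow 1 it was 0.13 and no longer under an unadjusted p of 0.05.

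SDHAF4 gave the largest difference of any member. Its 2× glands had 4.75, 5.66, 5.47, 6.53, 6.57 and 6.51 in cows 1 to 6, and its 4× glands had 5.84, 6.26, 5.95, 6.47, 6.86 and 6.37. The 4× gland was higher in cows 1, 2, 3 and 5 and lower in cows 4 and 6, and the low 2× values of cows 1 to 3 set the difference. The mean difference was 0.38 (SE 0.15, adjusted p = 0.224) and fell to 0.24 without cow 1.

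UQCRFS1 encodes the Rieske iron-sulfur protein, the subunit of complex III that hands electrons towards cytochrome c. Its 2× glands had 9.35, 9.70, 9.62, 9.54, 9.94 and 9.76 and its 4× glands 9.68, 9.87, 9.57, 9.83, 9.997 and 9.83. The 4× gland was higher in 5 of 6 cows, with a mean difference of 0.14 (SE 0.06). NDUFA4, first assigned to complex I and now often placed with complex IV, differed by 0.21 (SE 0.09). Most of that difference came from cow 1, at 0.73, and cow 3, at 0.41. NDUFAF3, an early assembly factor of complex I, was higher in 6 of 6 cows by 0.01 to 0.25 (mean 0.15, SE 0.07). Without cow 1 none of the 5 members stayed under an unadjusted p of 0.05, while 2.86% of all genes were then higher. The threshold was also lost by SDHAF4 without cow 2 or 3, by UQCRFS1 without cow 2 or 4, by NDUFA4 without cow 3 and by NDUFAF3 without any cow but cow 3. Without cow 2 the counts were 3 higher and 3 lower, and without cow 4 they were 3 and 0, given without the share of all genes.

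**Figure D2:**
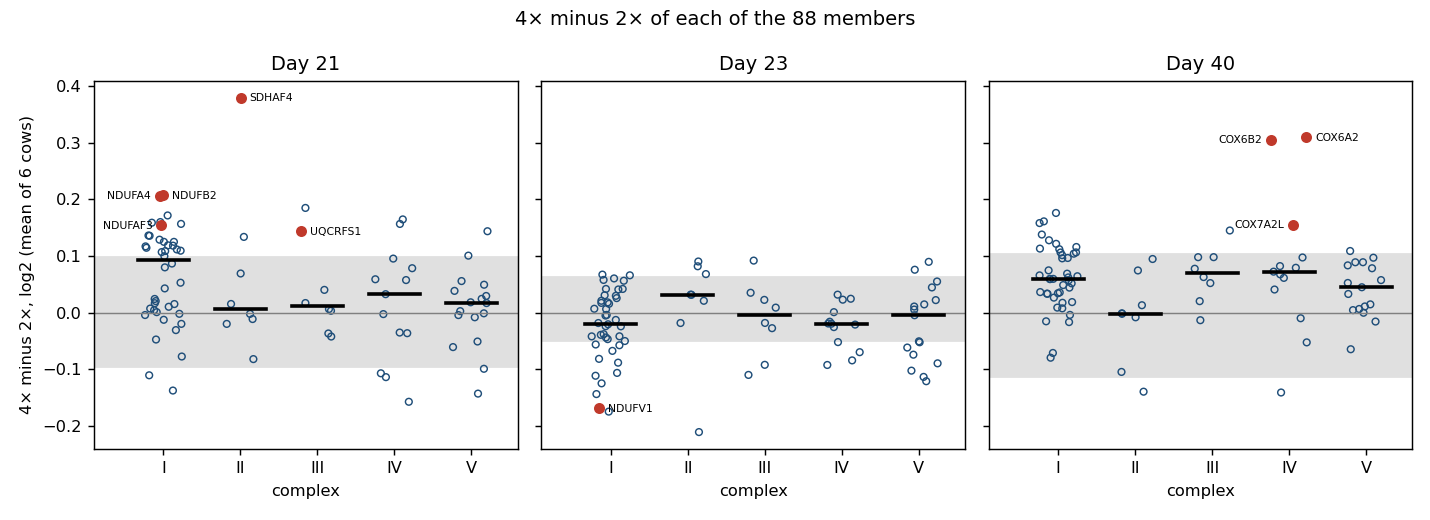
The vertical axis is 4× minus 2× on the log2 scale as the mean of 6 cows, and the horizontal axis is the complex, with 1 panel for each day. Points are the 88 members, filled and named where the unadjusted p is under 0.05, black bars are medians, and the grey band holds the middle 50% of all genes. Complex I has its median at 0.093 on day 21, at -0.019 on day 23 and at 0.060 on day 40.

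By complex, the day 21 differences leaned upwards in complex I, where 33 of 42 members were above 0 with a median of 0.093. The other complexes lay nearer to 0. Complex II had 4 of 8 members above 0 (median 0.006), complex III 6 of 8 (median 0.012), complex IV 7 of 13 (median 0.033) and complex V 10 of 17 (median 0.017). Averaged over complex I, cows 1 to 6 differed by 0.24, 0.15, -0.02, 0.04, 0.04 and -0.05. Hence cows 1 and 2 carried most of the mean of 0.07 ± 0.11 (SD, n = 6), and without cow 1 it was 0.03. Averaged over complex V the cows differed by 0.02, 0.10, -0.02, 0.02, 0.05 and -0.12, and here no cow stood far above the rest. Differences between the complexes were not tested, since members of a complex were measured on the same arrays.

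Cell type markers were read beside the members on day 21. Over all genes 8.29% were higher and 9.61% lower at an unadjusted p under 0.05. In lists this short, 1 call in a list is not read as a difference. Of the 5 ductal and luminal keratins, 4 were lower in 4× glands at an unadjusted p under 0.05, with a median of -0.75 over the 5. Their mean level ranged from 8.14 to 10.28 in the 2× glands and from 7.89 to 8.43 in the 4× glands. The strongest were KRT7 at -0.88 (SE 0.25) and KRT15 at -0.91 (SE 0.29), or -0.56 and -0.45 without cow 1. The mean over the 5 keratins differed by -1.85 in cow 1 and by -0.77 to -0.05 in the others, and 3 of 5 stayed lower without cow 1. Among 3 neutrophil markers, 2 were lower (S100A8 at -0.64 and S100A9 at -0.34). Their mean differed by -1.70 in cow 1 and -1.47 in cow 3 but by -0.29 to 0.10 in the other 4 cows. Among 8 secretory markers 1 was higher (BTN1A1, the milk fat globule protein butyrophilin, at 0.20, or 0.04 without cow 1), and their mean differed by 0.45 in cow 1 and by -0.06 to 0.07 in the others. Of the other marker lists, 1 of 7 myoepithelial, 2 of 5 T cell, 1 of 4 plasma and B cell and 1 of 7 skeletal muscle markers were lower, 1 of 4 adipocyte, 1 of 5 endothelial and 1 of 4 erythroid markers were higher, 1 of 4 macrophage markers went each way, and 0 of 6 fibroblast markers were under the threshold. Without cow 1, 1 T cell, 1 plasma and B cell, 1 macrophage and 1 neutrophil marker were lower and 1 adipocyte marker was higher, with 0 in the myoepithelial, skeletal muscle, endothelial, erythroid, fibroblast and secretory lists. The part of these cells in the members' values was not tested.

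On day 23, 2 days after frequent milking ended, 0 of 88 members were higher and 1 was lower in former 4× glands at an unadjusted p under 0.05. Over all genes 1.41% were higher and 1.07% lower, and 0% of probe sets passed an adjusted p under 0.05 in limma. The difference was above 0 in 39 of 88 members, with a median of -0.017, which ran from -0.055 without cow 6 to 0.019 without cow 5. The member that was lower was NDUFV1, the core subunit of complex I that binds NADH and flavin mononucleotide. Its 2× glands had 9.40, 9.16, 9.52, 8.94, 9.13 and 8.82 and its 4× glands 9.08, 9.18, 9.13, 8.83, 8.91 and 8.81. The 4× gland was lower in 5 of 6 cows, most in cows 1 and 3, whose 2× glands held the highest NDUFV1 values of all 36 arrays. The mean difference was -0.17 (SE 0.07, adjusted p = 1.00 in limma), and it lost p under 0.05 when cow 1, 3 or 5 was left out. The next members by p were ATP5F1E (-0.12), NDUFS6 (-0.17), ATP5F1D (-0.11) and NDUFA3 (-0.12), none of which was under 0.05. Without cow 6, 4 members were lower and 0 higher at that threshold, with NDUFS6 at -0.24. The share of all genes in that fit is not given.

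The change of the difference from day 21 to day 23 tested whether the 2 sides came to differ in another way once frequent milking ended. At an unadjusted p under 0.05, 0 of 88 members had a higher and 2 had a lower difference on day 23, against 7.01% and 5.42% of all genes, with 0% of probe sets at an adjusted p under 0.05 in limma. These were NDUFV1, at -0.28 (SE 0.09, adjusted p = 0.392) and negative in 6 of 6 cows, and SDHAF4, at -0.59 (SE 0.21, adjusted p = 0.398) and negative in 5 of 6 cows. SDHAF4 thus lay at 0.38 on day 21 and at -0.21 on day 23, and only cow 6 went the other way, by 0.63. Without cow 2 its change was -0.50 and above an unadjusted p of 0.05. Of the 88 members 60 had a negative change, 33 of them among the 42 of complex I, where the median change was -0.096. Over all members it was -0.056, and it ran from -0.12 without cow 6 to -0.020 without cow 5. The next by p were NDUFS6 (-0.29), ATP5MC1 (-0.25) and NDUFA4 (-0.25). Without cow 6 the negative changes numbered 8 at an unadjusted p under 0.05, with 1 positive, while 5.54% of all genes were negative and 5.23% positive. With all cows the change was positive at that threshold in 5 of 5 keratins, 2 of 3 neutrophil and 2 of 5 T cell markers. It was also positive in 1 of 7 myoepithelial and 1 of 4 plasma and B cell markers. In 1 of 4 adipocyte, 1 of 4 macrophage and 1 of 7 skeletal muscle markers it was negative. The part of these cells in the members' values was not tested.

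From day 21 to day 40 the change was under an unadjusted p of 0.05 in 0 of 88 members, against 2.32% of all genes upwards and 3.24% downwards, with 0% of probe sets at an adjusted p under 0.05. The smallest p values belonged to COX7A2L (0.19), NDUFB10 (0.20), SDHAF4 (-0.38), UQCRQ (0.19) and COX7A1 (0.18). SDHAF4 was negative in 6 of 6 cows, between -0.59 and -0.19, and without cow 1 it was the 1 member under an unadjusted p of 0.05, while without cow 6 it was COX7A2L, at 0.29.

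On day 40, with both sides long back at 2× milking, 3 of 88 members were higher in former 4× glands and 0 were lower at an unadjusted p under 0.05, against 8.9% and 9.51% of all genes. In limma 0% of probe sets passed an adjusted p under 0.05. The 3 were COX6A2, COX6B2 and COX7A2L, all filed under complex IV. The difference was above 0 in 71 of 88 members with a median of 0.059, while it was above 0 in 48.8% of all genes and in 33.9% of genes with a mean signal of at least 8. With arrays centred on their median, 59 members were above 0 with a median of 0.026, and with arrays scaled to reference genes 61 with a median of 0.037.

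COX6A2, the isoform of subunit 6A known from heart and skeletal muscle, had 4.71, 4.88, 4.81, 4.98, 4.94 and 4.86 in the 2× glands of cows 1 to 6. The 4× glands had 5.18, 4.83, 5.19, 5.28, 5.13 and 5.44. The 4× gland of cow 2 lay within the range of the 2× glands and the other 5 above it, and the mean difference was 0.31 (SE 0.09, adjusted p = 0.171 in limma). COX6B2, the isoform of subunit 6B known from testis, had 5.16 to 5.42 in the 2× glands and 5.18 to 5.84 in the 4× glands. It differed by 0.31 (SE 0.11, adjusted p = 0.188) and was again lower in cow 2 only, by -0.20, and without cow 3 or cow 6 it was above an unadjusted p of 0.05. Both genes had a mean signal of between 5 and 6 over the arrays, and of the 1214 genes in that range 69.0% were above 0 and 19.8% were higher at an unadjusted p under 0.05 on day 40. Of the 2319 genes between 8 and 10, 32.6% were above 0 and 1.68% were higher. The 7 skeletal muscle markers had a median difference of -0.003 on day 40, with 0 of them under an unadjusted p of 0.05, and averaged 5.78 to 5.84 in the 6 groups.

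COX7A2L, a relative of subunit 7A that joins complexes III and IV into larger assemblies, had 9.42, 9.19, 9.17, 9.38, 9.30 and 9.67 in the 2× glands and 9.75, 9.38, 9.30, 9.63, 9.49 and 9.50 in the 4× glands. It was higher in 5 of 6 cows, and lower in cow 6. The mean difference was 0.16 (SE 0.07, adjusted p = 0.236), and leaving out any cow other than cow 6 took it above 0.05. NDUFB2 followed at 0.16 and was again higher in 6 of 6 cows, by 0.03 to 0.33, but its other probe set (mean signal 8.74) had the opposite sign, at -0.14. NDUFA2, at 0.18, owed most of its value to cow 1 at 0.73. Without cow 3, 1 member (COX6A2) stayed under an unadjusted p of 0.05.

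**Figure D3:**
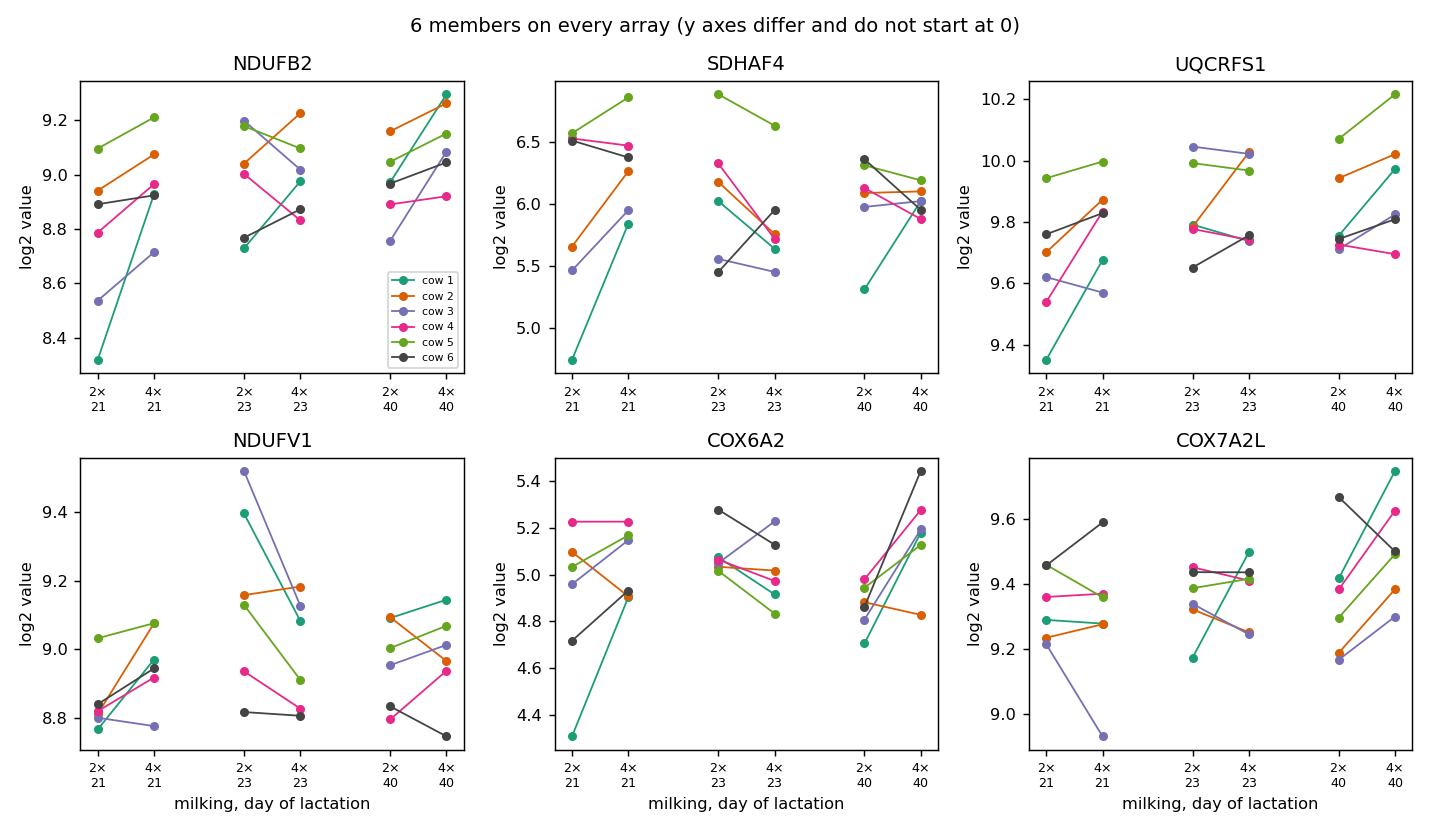
The vertical axis is the log2 value and the horizontal axis is the group by milking and day, with 1 panel for each of 6 members and coloured lines joining the sides of a cow. NDUFB2 climbs from the 2× to the 4× gland in 6 of 6 cows on days 21 and 40, and COX6A2 climbs in 5 of 6 cows on day 40.

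Taken over all 88 members, the upward lean on day 40 rested on cow 1. Averaged over the 88 members, cows 1 to 6 differed by 0.38, -0.03, 0.08, -0.02, 0.03 and -0.10 on that day. With all cows the mean was 0.05 ± 0.17 (SD, n = 6), and without cow 1 it was -0.009, with 36 of 88 members above 0. In cow 1 the difference was above 0 in 79 of 88 members, including 8 of 8 in complex III, 39 of 42 in complex I and 15 of 17 in complex V. Its 4× gland of day 40 held the highest mean over the members of all arrays, 9.80. The keratin markers of that cow on day 40 averaged 9.56 in the 2× gland and 8.58 in the 4× gland, and the part of this in the members' values was not tested. Of the other marker lists on day 40, 2 of 4 adipocyte and 1 of 4 erythroid markers were higher in the 4× glands, and 2 of 7 myoepithelial, 1 of 5 keratin and 1 of 4 plasma and B cell markers were lower at an unadjusted p under 0.05. Over all genes 8.9% were higher and 9.51% lower. Without cow 1, 1 adipocyte and 1 endothelial marker were higher and 1 keratin and 1 T cell marker were lower, with 0 in the other marker lists. Complex II did not share the lean, with 3 of 8 members above 0 and a median of -0.002. The mean of complex IV stayed above 0 without cow 1, at 0.036 (0.082 with all cows), with cows 2 and 6 below 0. The 3′ minus 5′ signal of control probe sets is lower in more intact RNA. For GAPDH it averaged 1.02 in 2× and 0.93 in 4× glands on day 21. It averaged 0.97 and 0.79 on day 23 and 0.95 and 0.78 on day 40. For actin the means were 1.49 and 1.42, 1.32 and 1.35, and 1.43 and 1.30 on these days. Cow 1 on day 40 had 0.79 and 0.90 for GAPDH and 1.30 and 1.22 for actin. The part of RNA integrity in the members' values was not tested.

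In 7 of the 18 within-cow differences at least 80% of the members had the same sign, but that sign was not the same from cow to cow, and the other differences were more mixed. On day 23, 12 of 88 members were above 0 in cow 3, 14 in cow 4 and 13 in cow 5. On the same day 57 were above 0 in cow 1, 71 in cow 2 and 79 in cow 6. Over all 9155 genes, 42.1% to 57.4% were above 0 in these 6 pairs. The mean differences over the members were 0.05, 0.09, -0.13, -0.13, -0.16 and 0.17 in cows 1 to 6, so that the mean of -0.02 ± 0.14 (SD, n = 6) joined opposite values. On day 21 the count above 0 ran from 30 in cow 6 to 77 in cow 2, and on day 40 from 18 in cow 6 to 79 in cow 1.

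To see which members took part, the sign of each member was set against the sign of the mean of the other 87 in the 18 within-cow differences. The signs matched in at least 14 of 18 pairs in 39 of 88 members (44.3%), with a median of 13 pairs. Of the other 9067 genes, 4.46% matched the members' mean that often, with a median of 9 pairs. These pairs share cows and arrays, so the counts are a description. The genes were not matched by signal, which had a median of 9.76 in the members and 7.16 over all genes. The part of signal level in this contrast was not tested. ATP5MC3 matched in 17 pairs, and ATP5MF, ATP5PF, COX6C, COX7C, NDUFA7, NDUFAB1, NDUFAF8, NDUFB4 and NDUFB6 in 16. By complex, 21 of 42 members of complex I, 1 of 8 of complex II, 5 of 8 of complex III, 5 of 13 of complex IV and 7 of 17 of complex V reached 14 pairs. The fewest matches were those of COX7A1 (7), NDUFA4L2 and SDHAF2 (8) and COX6A2 (9). Of these, COX7A1 and COX6A2 are the forms known from muscle, and NDUFA4L2 is a relative of NDUFA4 known to be induced by low oxygen. COX6A2 had the lowest mean signal of complex IV, and NDUFA4L2 had a mean of 6.66, so both were dim beside most members.

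**Figure D4:**
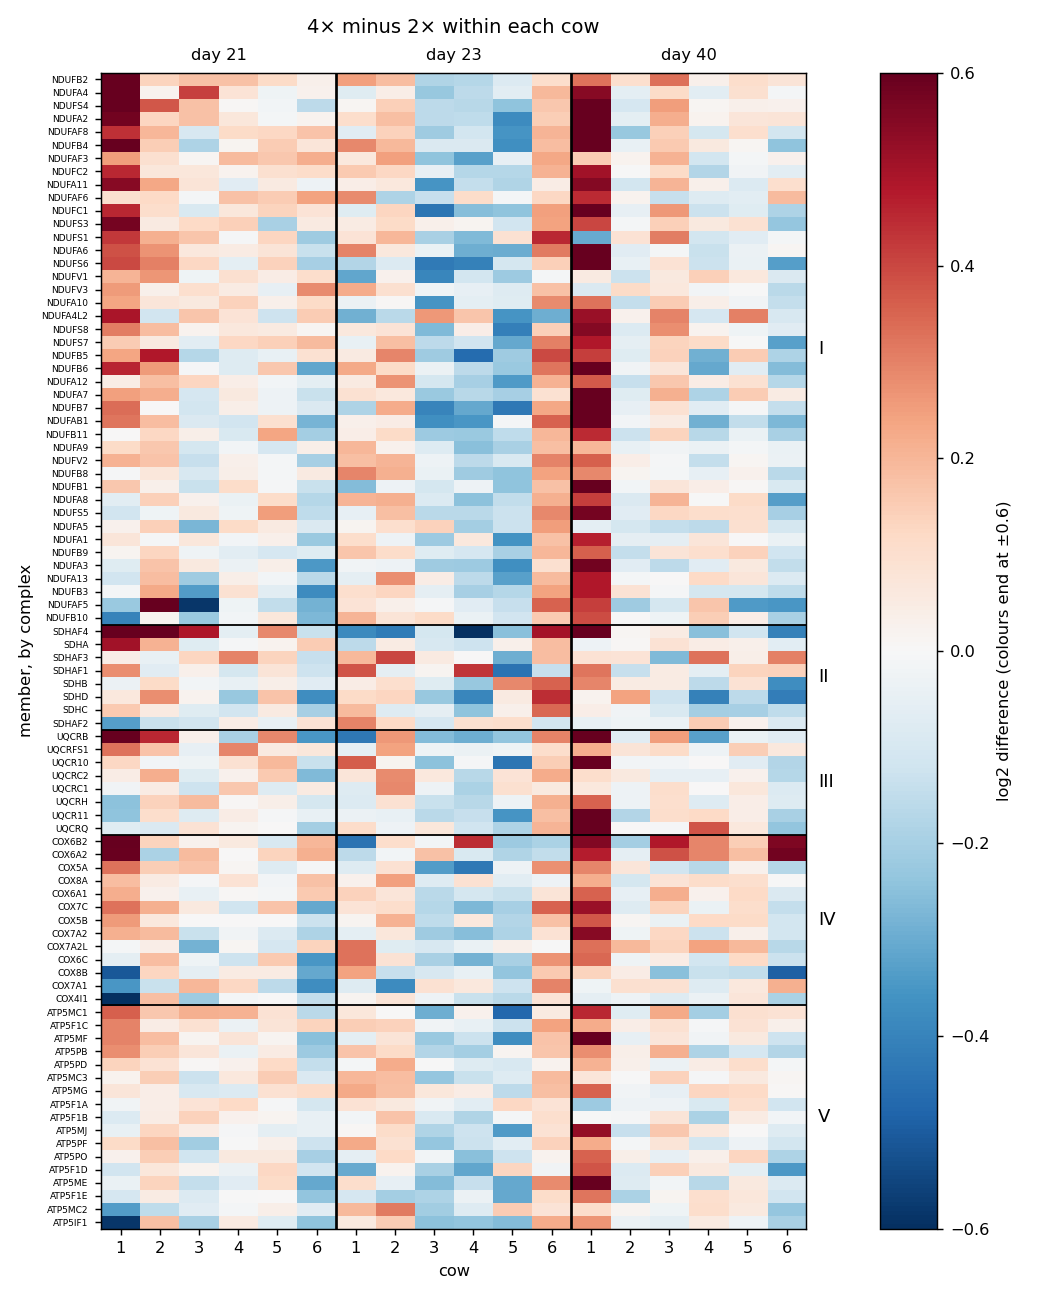
Rows are the 88 members, ordered by complex and by their mean difference on day 21, and columns are cows 1 to 6 on days 21, 23 and 40. Colour is 4× minus 2× on the log2 scale, red above and blue below 0. Some columns are mostly of 1 colour, as in cow 1 on day 40, where 79 of 88 members are above 0, and in cow 5 on day 23, where 13 are, and others are mixed, as in cow 3 on day 21, where 43 are.

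Between days, the 2× glands gave the largest number of members. From day 21 to day 23, 17 of 88 members (19.3%) were higher and 0 lower at an unadjusted p under 0.05, against 8.07% and 9.9% of all genes, and 71 members were above 0 with a median of 0.113. Of genes with a mean signal of at least 8, 11.9% were higher, and of those above 10, where 37 of the members lie, 16.9%. No member, and 0% of probe sets, passed an adjusted p under 0.05 in limma (smallest member value 0.168). The members counted were 9 of complex I, 1 of complex II, 1 of complex III, 3 of complex IV and 3 of complex V. Fore glands were compared with rear glands here, so day and gland position cannot be told apart.

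NDUFV1 led this comparison with 8.77, 8.81, 8.80, 8.82, 9.03 and 8.84 on day 21 and 9.40, 9.16, 9.52, 8.94, 9.13 and 8.82 on day 23 in cows 1 to 6. It was higher on day 23 in 5 of 6 cows and level in cow 6 (-0.02), with a mean difference of 0.31 (SE 0.08, adjusted p = 0.168). COX8A, the widely expressed form of the smallest complex IV subunit, was higher in 6 of 6 cows by 0.04 to 0.40 (mean 0.21, SE 0.07). SDHA, the flavin-carrying catalytic subunit of complex II, differed by 0.21 (SE 0.07), NDUFA4 by 0.32 (SE 0.11) and ATP5MC1 by 0.28 (SE 0.10), each higher in 5 of 6 cows. The remaining 12 were UQCRFS1, NDUFB2, COX5A, NDUFA11, NDUFA2, NDUFAF3, NDUFA12, NDUFV3, COX6A1, ATP5MC3, NDUFS4 and ATP5F1A, at 0.11 to 0.25.

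Cow 6 went against the other 5 cows. Averaged over the 88 members, day 23 minus day 21 in the 2× glands was 0.22, 0.16, 0.35, 0.09, 0.10 and -0.34 in cows 1 to 6, and only 8 of 88 members were above 0 in cow 6, against 64 to 83 in the others. The count of higher members depended on single cows. It was 52 without cow 6, where 9.14% of all genes were higher, 7 without cow 1, where 2.96% were, and 3 without cow 3, where 4.52% were. The median of the members ran from 0.064 without cow 3 to 0.195 without cow 6. The 3′ minus 5′ signal of the actin control probe sets, a measure of RNA integrity, was 0.94 in the day 23 2× gland of cow 6 and 1.22 to 1.48 in that of the other cows, where a lower value stands for more intact RNA. The same measure from GAPDH pointed the other way, with 1.19 in cow 6 and 0.81 to 1.07 in the others. Of the 5 keratins 3 were lower on day 23 at an unadjusted p under 0.05, with a median of -0.76, or -0.34 without cow 1. Lower too were 2 of 5 T cell, 1 of 3 neutrophil and 1 of 7 skeletal muscle markers, against 9.9% of all genes. Higher were 1 of 8 secretory, 1 of 6 fibroblast and 1 of 5 endothelial markers, against 8.07% of all genes, and 1 of 4 macrophage markers went each way. Without cow 1, 3 keratins and 1 T cell marker were lower and 1 fibroblast marker was higher, with 0 in the other marker lists. The parts of RNA integrity and of these cells in the members' values were not tested. In the 4× glands the same step gave 3 higher members (ATP5F1A, COX8A and UQCRC1) and 1 lower (SDHAF4 at -0.43, SE 0.18, negative in 6 of 6 cows), against 2.37% and 1.64% of all genes, with 0% of probe sets at an adjusted p under 0.05. ATP5F1A, the alpha subunit of the catalytic head of ATP synthase, was higher in 6 of 6 cows by 0.03 to 0.25, and UQCRC1, a core protein of complex III, was higher in 4 of 6. ATP5MC3, next by p, was at 0.17. Of the 88 members 66 were above 0 with a median of 0.039, which was 0.0056 without cow 3 and 0.073 without cow 5. Without cow 2 both directions counted 0, and without cow 3, 1 member was higher.

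Day 40 was compared with day 21 in rear glands on both days. Those glands had been biopsied on day 21, so day 40 cannot be told apart from an earlier biopsy on either side. In the 2× glands 10 of 88 members were higher and 0 lower, against 4.39% and 2.86% of all genes, with 69 members above 0 and a median of 0.081. The 10 were NDUFV3, COX8A, SDHA, UQCRFS1, NDUFB2, ATP5MC3, NDUFA4, COX5A, NDUFA12 and NDUFAF3. Both comparisons in the 2× glands use the same day 21 arrays and are not independent. NDUFV3, a small subunit beside NDUFV1, was higher in 6 of 6 cows by 0.08 to 0.43 (mean 0.18, SE 0.06, adjusted p = 0.522). Without cow 1 the count of members was 0, when 2.21% of all genes were higher. It was 3 without cow 2, 6 without cow 3 and 17 without cow 6, given without the share of all genes. Of genes with a mean signal of at least 8, 7.15% were higher. Fibroblast markers were above 0 in 6 of 6, with 2 higher and a median of 0.29, while 2 of 5 T cell and 1 of 3 neutrophil markers were lower and 1 of 5 endothelial markers was higher. Their part in the members' values was not tested. The 2× gland of cow 1 on day 21 had the lowest mean over the members of all arrays, 9.24. Across all probe sets 0.00416% passed an adjusted p under 0.05 in limma, none of them a member.

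In the former 4× glands 5 members were higher on day 40 than on day 21 and 0 lower, against 3.53% and 4.53% of all genes, and 80 of 88 members were above 0 with a median of 0.097. They were COX7A2L at 0.21 (SE 0.07, adjusted p = 0.401), ATP5MC3 at 0.20, higher in 6 of 6 cows, COX8A at 0.16, NDUFA12 at 0.21 and COX6C at 0.22. Here too the cows were unlike each other, with mean differences over the members of 0.41, 0.01, 0.25, -0.002, -0.03 and -0.10 in cows 1 to 6. Without cow 1, 1 member was higher and 2 were lower, without cow 3, 2 were higher, and without cow 6, 19 were higher. These counts are given without the share of all genes and show only the dependence on single cows. Without cow 1, 64 members were above 0 with a median of 0.037. Fibroblast markers were above 0 in 6 of 6, with 2 higher and a median of 0.36, and 1 of 5 keratins was higher. The 3′ minus 5′ signal went from 1.42 ± 0.13 to 1.30 ± 0.21 for actin and from 0.93 ± 0.14 to 0.78 ± 0.18 for GAPDH (SD, n = 6). The parts of these cells and of RNA integrity in the members' values were not tested. At an adjusted p under 0.05, 0.0583% of probe sets passed in limma and no member did.

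**Figure D5:**
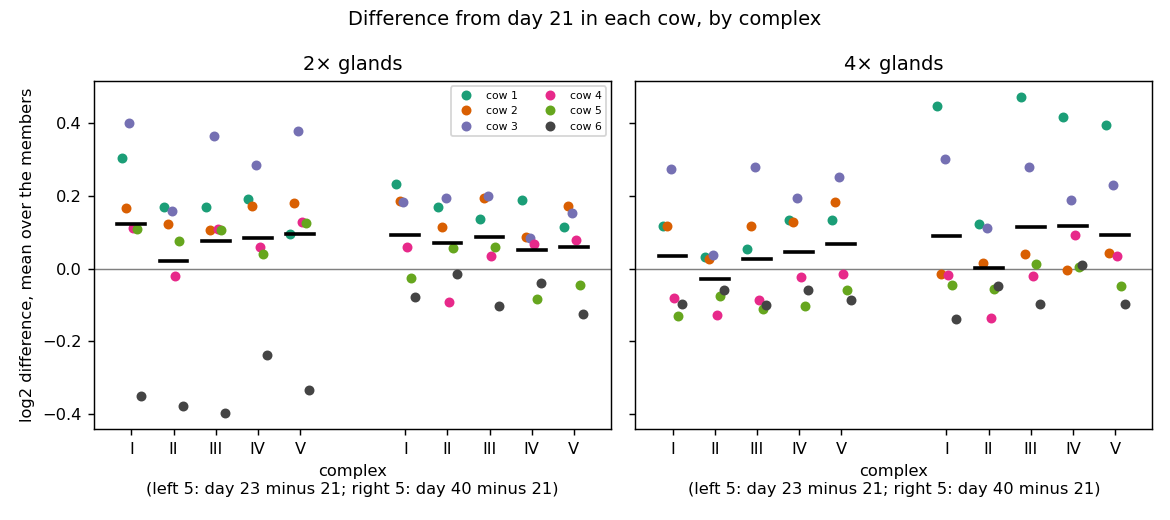
The vertical axis is the log2 difference from day 21 averaged over the members of a complex, and the horizontal axis is the complex, for day 23 and day 40 in the 2× glands (left) and the 4× glands (right). Coloured points are cows and black bars are means of 6 cows. Cow 6 lies below 0 in all 5 complexes on day 23 in the 2× glands, between -0.40 and -0.24, and cow 1 lies highest in all 5 on day 40 in the 4× glands.

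Genes of 1 subunit with several isoforms gave separate readings. Of the 4I family COX4I1, the general form, was measured, and it stood at -0.16 on day 21 without passing the threshold. Of the 6A family COX6A1, the general form, stood at 0.06, -0.02 and 0.10 on days 21, 23 and 40 where COX6A2 stood at 0.16, -0.07 and 0.31. Of the 7A family the general form COX7A2 stood at -0.00, -0.09 and 0.07, the muscle form COX7A1 at -0.11, -0.02 and 0.06, and COX7A2L at -0.035, 0.02 and 0.16. COX8A stood at 0.08, 0.03 and 0.07, and COX8B, the form known from muscle, at -0.11, -0.02 and -0.14. NDUFA4 stood at 0.21, -0.05 and 0.10 and NDUFA4L2 at 0.11, -0.11 and 0.16. Apart from COX6A2, COX7A2L and NDUFA4 where named above, none of these was under an unadjusted p of 0.05 between the sides in the probe set used. Second probe sets of COX6A1, COX8B and NDUFA4L2 were, as given with the probe sets.

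The 3 genes for the c subunit of ATP synthase encode the same mature protein behind different import signals. ATP5MC1 stood at 0.14 on day 21, -0.10 on day 23 and 0.10 on day 40. ATP5MC2 stood at -0.10, 0.08 and 0.00, and ATP5MC3 at 0.03, 0.02 and 0.045. Between days 21 and 23 in the 2× glands ATP5MC1 differed by 0.28 and ATP5MC3 by 0.17, while ATP5MC2 was at -0.09. ATP5IF1, the inhibitor that binds ATP synthase when the proton gradient fails, stood at -0.14, -0.05 and -0.00 between the sides and passed no threshold.

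Assembly factors were not uniform. Among the 8 filed with the members, NDUFAF3 and SDHAF4 were higher in 4× glands on day 21, while NDUFAF8 was at 0.16, NDUFAF6 at 0.13, SDHAF3 at 0.07, SDHAF1 at 0.02, SDHAF2 at -0.08 and NDUFAF5 at -0.11. Of 21 measured assembly factors with other names, 13 were above 0 on day 21. At an unadjusted p under 0.05, 0 were lower and 2 were higher, against 9.61% and 8.29% of all genes. These were TMEM70, which builds ATP synthase, at 0.39 (SE 0.17), or 0.11 without cow 1, and ECSIT, a complex I factor, at 0.19 (SE 0.08) and positive in 6 of 6 cows. On day 40, 1 of the 21 was lower (SCO1, which brings copper to complex IV, at -0.18), against 9.51% of all genes. CYC1, the cytochrome c1 of complex III whose name lies outside the rule, was at 0.02 on day 21 and 0.09 on day 40, and at 0.13 from day 21 to day 23 in the 2× glands.

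Of 10 measured regulators of mitochondrial biogenesis, 3 were above 0 on day 21. At an unadjusted p under 0.05, 2 were higher and 1 lower, against 8.29% and 9.61% of all genes. TFB2M, a mitochondrial transcription factor, was higher in 6 of 6 cows by a mean of 0.49 (SE 0.12, adjusted p = 0.180), and by 0.34 without cow 1. PPARGC1A, the coactivator PGC-1 alpha, was higher in 6 of 6 cows by 0.30 (SE 0.14), and NRF1, which drives many respiratory genes, was lower in 5 of 6 cows, at -0.22 (SE 0.10). Without cow 1, TFB2M alone of the 10 was under an unadjusted p of 0.05. On day 40, 5 of the 10 were above 0, with 2 higher and 1 lower, against 8.9% and 9.51% of all genes. Without cow 1, 2 of the 10 were higher and 0 lower on that day. Of 16 genes of pyruvate dehydrogenase and the citric acid cycle, 12 were above 0 on day 21. By the same rule 3 were higher and 0 lower, against 8.29% and 9.61% of all genes. All 3 belong to pyruvate dehydrogenase, with PDHB at 0.30 (SE 0.07, adjusted p = 0.180, positive in 6 of 6 cows), PDHA1 at 0.19 (SE 0.07) and DLAT at 0.31 (SE 0.14). Without cow 1, PDHB (0.27) was the 1 of the 16 under an unadjusted p of 0.05. Between days 21 and 23 in the 2× glands 5 of the 16 were higher and 1 lower, against 8.07% and 9.9% of all genes. CS, citrate synthase, was among them, at 0.23. Without cow 1, 2 of the 16 were higher and 0 lower.

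The 88 members had 115 probe sets in all, since 24 members were measured by several, and 27 of these were not used above. On day 21, 15 of the 27 had the opposite sign to the probe set used, and on day 40, 9 had. Of these 27, 11 had a mean signal under 5. For COX8B the second probe set was at 0.25 (SE 0.09, under an unadjusted p of 0.05) on day 21 where the one used was at -0.11, and the 2 correlated at -0.49 over the 36 arrays. For COX6A1 the second stood at 0.38 (SE 0.13) against 0.06, and for NDUFA5 at 0.25 against -0.004. NDUFAF3, counted above, was at 0.02 and -0.02 in its other 2 probe sets. NDUFB2 had a second bright probe set, at 0.12 on day 21 and -0.14 on day 40, and its gap of 0.30 on day 40 was the largest among these members. The second probe set of NDUFA4L2 was at 0.20 (SE 0.08) on day 40 and under an unadjusted p of 0.05, where the one used was at 0.16 and was not.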

How the data were processed

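The values were log2 signals of a GeneChip Bovine Genome Array, deposited by the authors, who had summarised the probes by RMA (background correction, quantile normalization and summary on the log2 scale; the version is not given in the sources used here). RMA compresses small differences in dim probe sets. Of 24128 probe sets, 112 control probe sets were left out, and 10724 carried no symbol and 86 several. All 36 arrays were mapped by their labels, with 0 unmapped columns.

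Members and gene lists were chosen with earlier results of these data known. For 4× minus 2× and its change between days, limma 3.58.1 in R 4.3.3 was fitted to the 18 within-cow differences with a mean for each day. Day comparisons used the 36 arrays with cow as a block. All 24016 probe sets were fitted, with Benjamini-Hochberg adjustment over them. The labels give each array a replicate number but name no animal, and arrays with the same number were taken as the same cow. Deviations correlated positively in 18 of 18 pairs of 2× and 4× glands with the same number and day (0.242 to 0.665). The link of a cow across days was not tested. The changes between days, the day comparisons and statements that follow a cow over days rest on it. No 2 arrays were identical (highest correlation 0.997). Tested on simulated data for the day 21 difference over 24016 probe sets, shifts of 0.5 were recovered in 84% and of 1 in 99%. The simulated noise was drawn independently for each probe set, without the spread that genes share within a cow. Members differed by 0.38 at most on day 21, so these shares do not give the power for the members. The number of cows limits the precision.

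The genes named were the 5 with the smallest p in each comparison, the extremes of each complex, isoform families, assembly factors, the members whose probe sets differed most and 2 genes of each further list. NDUFAB1, NDUFB4, ATP5MF and other genes named for their matching signs, members past the unadjusted threshold beyond the 5, and further genes of the lists were chosen after their values were seen. Alternatives changed the block, the spread, the moderation, the probe set, the scaling and the cows, and leaving cow 1 out of the further lists was chosen after seeing the data.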

Additional observations from a re-analysis of the deposited data

Results flagged for a closer look

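The sets examined held differences between the sides and the mean levels of the 6 groups, with 1 value for each cow. Of these 39 sets, 6 held a cow far from the others, and in each of the 6 it was cow 1. Chance alone marks about 0.05 of unselected sets, and sets from the same arrays are not independent. Single members were examined because of their small p, so this rate need not hold for them. On day 40 the 4× minus 2× difference of cow 1 averaged 0.377 over the 88 members, while the other cows lay between -0.099 and 0.076. In the same pair the mean over complex I was 0.457, over complex III 0.434 and over complex IV 0.312. NDUFA2 differed by 0.727 in cow 1 on day 40 and by -0.06 to 0.22 in the other cows. NDUFB2 differed by 0.609 in cow 1 on day 21 and by 0.03 to 0.18 in the others. The keratin markers of cow 1 averaged 10.28 in the 2× gland and 8.43 in the 4× gland on day 21, and 9.56 and 8.58 on day 40. The part of these cells in the values of cow 1 was not tested.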

How the results depend on the processing

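Counts of members at an unadjusted p under 0.05 depended on the fit and on single cows. They are given here without the share of all genes in the same fit. They show this dependence and are not read as results about the members. Without the replicate block, which pairs samples of the same cow, the count was 0 on day 21 (5 with it), 0 on day 23 (1), 1 for the change from day 21 to day 23 (2), 6 and 1 from day 21 to days 23 and 40 in the 2× glands (17 and 10), and 1 and 2 in the 4× glands (4 and 5). For day 21 it was 2 with cow as a block on the 36 arrays, 3 with the spread of each day alone, 9 without moderation, 3 with arrays centred on their median and 3 without the assembly factors. For day 23 it was 0 with the spread of each day alone and 2 with arrays scaled to reference genes. The change from day 21 to day 23 gave 1 without the assembly factors, and the change to day 40 gave 1 with reference scaling (0). Reference scaling gave 28 and 19 members on days 23 and 40 in the 2× glands and 7 and 11 in the 4× glands. That scaling also moved the median of all genes. In the 2× glands it moved by 0.022 and 0.020, and in the 4× glands by 0.011 and -0.002. Median centring gave 11 on day 23 in the 2× glands and 3 on day 40 in the 4× glands. The cause was not tested. Leaving out each cow in turn gave 0 to 6 members on day 21, 0 to 4 on day 23, 1 to 3 on day 40, 2 to 9 and 0 to 1 for the changes to days 23 and 40, 3 to 52 and 0 to 17 in the 2× glands on days 23 and 40, and 0 to 6 and 2 to 19 in the 4× glands. Among alternatives other than leaving out a cow, 46 counts stayed within 1.5 times and 22 did not, and 22 values of named members lost the threshold and 4 gained it. Leaving out a cow moved 22 counts by more than that and left 32 within it, and took 25 values of named members above the threshold and 8 below it. No value of a named member reversed. Means of complexes moved by less than 1 SD over cows, a bound that leaving out 1 of 6 cows cannot exceed. Without cow 1 the day 40 mean changed sign, from 0.055 to -0.009 over all members. It went from 0.062 to -0.017 in complex I, from 0.067 to -0.006 in complex III and from 0.040 to -0.011 in complex V. The sign stayed in complex IV, from 0.082 to 0.036, and in complex II, from -0.009 to -0.046. COX6A2 on day 40 and the change of NDUFV1 to day 23 stayed under 0.05 in every alternative run.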

Other observations

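Glycolysis and the exchange of ATP across the mitochondrial membrane lie on either side of the respiratory complexes. Of 16 measured genes of glycolysis and lactate dehydrogenase, 5 were above 0 in 4× minus 2× on day 21. At an unadjusted p under 0.05, 2 were higher and 4 lower, against 8.29% and 9.61% of all genes. GAPDH was at -0.39 (SE 0.15) and HK1, a hexokinase, also at -0.39 (SE 0.15), each lower in 5 of 6 cows. The mean over the 16 differed by -0.29 in cow 1 and by -0.12 to 0.07 in the others, and without cow 1 none of the 16 was under an unadjusted p of 0.05, with GAPDH at -0.15 and HK1 at -0.19. On day 40, 0 were higher and 2 were lower, against 8.9% and 9.51% of all genes, with HK1 at -0.36 and GAPDH at -0.09. Against 8.29% and 9.61% of all genes, 1 of 12 carriers, porins and uncoupling proteins was higher on day 21 and 0 were lower. It was SLC25A4, an ATP and ADP exchanger of the inner membrane, at 0.28 (SE 0.11) and positive in 6 of 6 cows, at 0.11 and above the threshold without cow 1, and it stood at 0.09 on day 40. CKMT1A, a mitochondrial creatine kinase, was at -0.21 (SE 0.10) and negative in 6 of 6 cows on day 21, above an unadjusted p of 0.05. None of these genes passed an adjusted p under 0.05 in limma.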
